A study of Homo sapiens with 72 samples.

Results

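The 47 genes described here encode the enzymes and cofactors that shorten, decap and degrade messenger RNA and that carry out nonsense-mediated decay (NMD). They were chosen by symbol, among the 61541 Ensembl genes of each of the authors' 11 deposited comparison tables. No measured value was a criterion, but the choice was made with earlier results of these data known. All 47 were found in every table and all had an adjusted p-value there, so none was lost to a filter on low values. They comprise 11 genes of the CCR4-NOT complex, 3 other deadenylase genes, 10 decapping genes, 2 5'-3' exonuclease genes, 12 exosome genes and 9 NMD genes. The study concerns G3BP1, an RNA-binding protein that seeds stress granules, the bodies of untranslated RNA and protein that form in stressed cells. RNA immunoprecipitation compared 3 libraries of RNA bound to FLAG-tagged G3BP1 with 3 input libraries. The cells were FlpIn 293 Trex, an embryonic kidney line carrying the stable FLAG-G3BP1 gene, induced with 1 ug/mL tetracycline for 24 h. The other 18 libraries were RNA-seq of U2OS osteosarcoma cells, 2 per group. A first experiment held wild-type cells, G3BP1/2 knockout cells and such cells 24 h after G3BP1 was put back by Lipofectamine transfection. A second held knockout cells and knockout cells rescued with wild-type G3BP1 or with G3BP1 lacking its NTF2 domain, each without and with 200 uM sodium arsenite for 2 h. All cells of the second experiment carried the knockout, so it has no wild-type line, and its knockout groups were not transfected. In the first experiment the labels give a transfection for the rescued cells only, not for the knockout or wild-type cells. In both experiments, transfection therefore cannot be told apart from the return of G3BP1. The labels do not say whether the libraries of a group came from separate cultures, so p-values may measure technical spread only.

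As background, most mRNAs are degraded after their poly(A) tail has been shortened by PAN2-PAN3 and then by CCR4-NOT. The shortened mRNA is decapped by DCP2 with its cofactors and digested by XRN1 from the 5' end, or digested from the 3' end by the exosome. NMD removes mRNAs with a premature stop codon through UPF1, its partners UPF2 and UPF3, and the SMG factors, and many factors of NMD are encoded by mRNAs that are themselves targets of it. Several decapping factors and XRN1 gather in processing bodies, which can touch stress granules.

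Of the recovered U2OS libraries, the 6 earlier ones held 38.6 to 52.4 M (mega) reads and the 12 later ones 10.8 to 27.7 M reads. Normalised reads of G3BP1 were 12675 and 12671 in the knockout libraries of the first experiment, 19062 and 18211 in wild type and 20080 and 20304 after transfection. Reads over a whole gene do not test a knockout made by small deletions, and the sources used here do not say which part was removed. In the second experiment G3BP1 had 3845 and 3925 normalised reads in the knockout, 621424 and 591181 in the wild-type rescue and 839589 and 806058 in the NTF2-deletion rescue. Against the knockout of the same experiment, G3BP1 was higher by 7.31 ± 0.04 and 7.75 ± 0.05 on the log2 scale with the 2 later rescues, and in the first experiment the knockout was at -0.69 ± 0.04 against the rescue and -0.56 ± 0.05 against wild type in the authors' deposited tables. G3BP2 was at -0.36 ± 0.06 against wild type. Among 7 bone markers of U2OS cells, COL1A1 and SPARC were abundant in knockout against wild type (base means of 87411 and 68055 normalised reads), and IBSP was listed at 0. RUNX2 and ALPL had base means of 924 and 388 there, and COL1A2 and BGLAP were low at 17.5 and 8.76. COL1A1 fell in the knockout relative to wild type (log2 fold change -2.73 ± 0.05 in the authors' deposited table), while ALPL was at 3.49 ± 0.19, so the lines differed in tissue markers in both directions. Their part in the results below was not tested. Of the 4 markers of the 293 line, the immunoprecipitation table gave NEFL a base mean of 1078 and GATA2 of 156, but NEFM one of 4.87 and DLK1 one of 0.567. NEFL was also abundant in U2OS cells (3823 in knockout against wild type), so it does not tell the lines apart. Of 9 markers of other cell types, the immunoprecipitation table listed the blood, vessel and liver markers PTPRC, CDH5 and ALB at 0. CD3E, HBB and PECAM1 had base means of 0.275, 0.308 and 0.275 there. The epithelial markers KRT8 (2323), EPCAM (911) and CDH1 (22.8) were present in it. In knockout against wild type KRT8 (17756) and EPCAM (453) were present as well. CDH1 was at 27.9 and the blood marker PTPRC at 21.3 there.

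Unstressed cells rescued with G3BP1 carried more mRNA for most of these factors than untransfected knockout cells. With wild-type G3BP1, 30 of the 47 genes were called higher and 2 lower at an adjusted p under 0.05 in the authors' deposited table, where 42.1% of all tested genes were called, 23% higher and 19.1% lower. With the NTF2 deletion, 33 were called higher and 3 lower, against 41.5% of all genes called, 22.8% higher and 18.7% lower. The median log2 fold change of the 47 genes was 0.39 and 0.42 in the 2 deposited tables, and that of all tested genes -0.03 and -0.02. Well expressed genes, with base means of at least 100, had medians of 0.18 and 0.17. After fold changes were centred on these medians, 22 of the 47 were called higher and 7 lower with wild-type G3BP1 (all genes 17.3% and 25%), and 25 higher and 8 lower with the deletion (17.1% and 24.3%). The 2 comparisons share their knockout libraries and are not independent. Leaving out 1 library at a time from the group means turned the sign of no called member.

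The exosome, a ring of subunits with attached nucleases that digests RNA from the 3' end, held the largest differences. Of its 12 genes, 10 were called higher with wild-type G3BP1 (all genes 23%) and 11 with the deletion (22.8%), and none was called lower. After centring 9 were called higher in each (all genes 17.3% and 17.1%). EXOSC4, a ring subunit, had 208 and 216 normalised reads in the knockout libraries, 639 and 610 in the wild-type rescue and 592 and 604 in the deletion rescue. Every rescue library lay above both knockout libraries. Such separation of 2 against 2 libraries was common. With wild-type G3BP1, 41.1% of genes with a mean of at least 10 reads lay wholly above the knockout and 41.3% wholly below. With the deletion these shares were 40.5% and 40.9%. The group means of EXOSC4 differed 2.94-fold and 2.82-fold. The authors' deposited tables gave a log2 fold change of 1.56 ± 0.16 (adjusted p = 9.19e-21) for the first and an adjusted p of 4.77e-19 for the second. EXOSC7, another ring subunit, had 258 and 262 reads in the knockout, 697 and 613 with wild-type G3BP1 and 639 and 639 with the deletion. For EXOSC5, also in the ring, the knockout had 250 and 260 reads, the wild-type rescue 609 and 559 and the deletion rescue 614 and 630. Their groups did not overlap either, and the authors' deposited tables gave 1.35 ± 0.16 and 1.31 ± 0.15 for EXOSC7 and 1.21 ± 0.16 and 1.30 ± 0.16 for EXOSC5. The catalytic subunit gene DIS3 rose too, with 653 and 668 reads in the knockout, 1129 and 1186 in the wild-type rescue and 1101 and 1264 in the deletion rescue. DIS3L, its cytoplasmic paralog, was lowest of the 12 at 0.14 ± 0.14 and 0.20 ± 0.14 in the deposited tables, neither called.

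**Figure D1:**
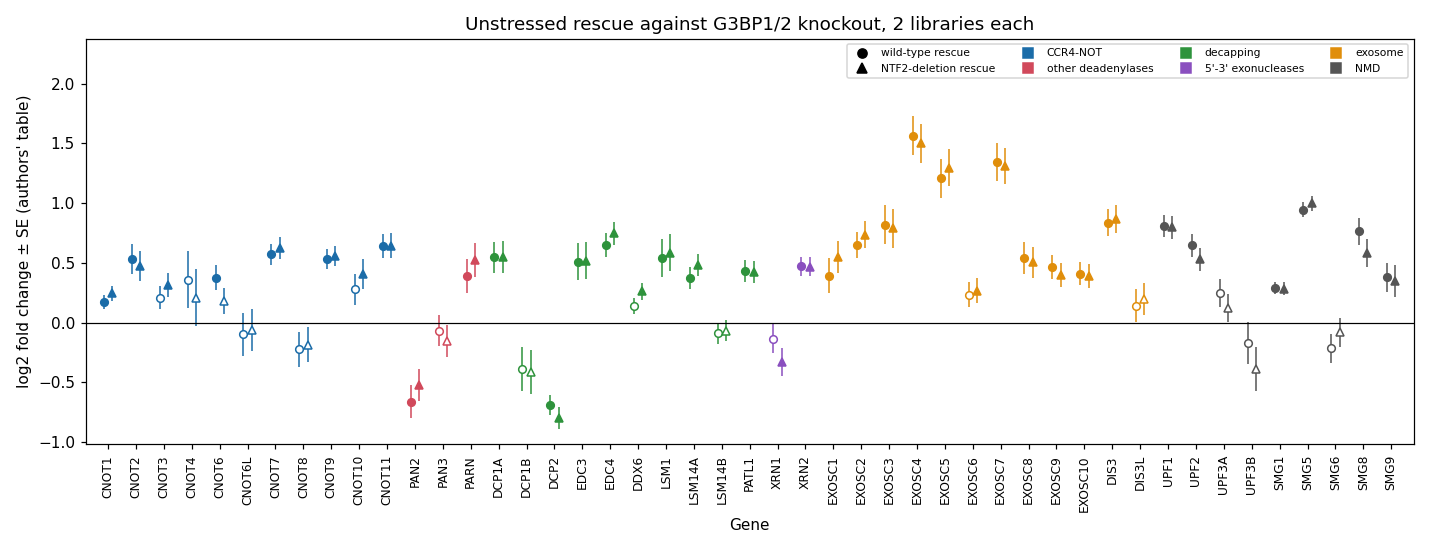
Log2 fold change of the 47 genes in unstressed rescued cells against untransfected knockout cells (vertical axis, ± the authors' standard error), by gene (horizontal axis), with circles for wild-type G3BP1, triangles for the NTF2 deletion, filled symbols for called genes and colours for roles. EXOSC4, EXOSC5 and EXOSC7 lie above 1, and PAN2 and DCP2 lie below -0.5 in both.

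Of the 9 NMD genes, 6 were called higher with each protein (all genes 23% and 22.8%) and none lower. After centring 4 were called higher (all genes 17.3% and 17.1%) and 1 lower (25% and 24.3%) with each. SMG5, which recruits decay enzymes to phosphorylated UPF1, had 2670 and 2721 normalised reads in the knockout, 5098 and 5054 in the wild-type rescue and 5391 and 5144 in the deletion rescue. The groups stood well apart, at log2 fold changes of 0.95 ± 0.06 (adjusted p = 1.22e-53) and 1.00 ± 0.07 (1.3e-50) in the authors' deposited tables. UPF1, the helicase at the centre of the pathway, had 1253 and 1467 reads in the knockout, 2272 and 2386 in the wild-type rescue and 2418 and 2207 in the deletion rescue. Neither SMG6, the NMD endonuclease (deposited values of -0.22 ± 0.12 and -0.08 ± 0.12), nor UPF3B (-0.17 ± 0.17 and -0.39 ± 0.18) was called. The first was the lowest NMD gene with wild-type G3BP1 and the second with the deletion, and in those comparisons centring called each lower (adjusted p = 0.00438 and 0.00673).

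The decapping genes gave 6 called higher and 1 lower of 10 with wild-type G3BP1 (all genes 23% and 19.1%). With the deletion they gave 7 and 1 (22.8% and 18.7%). After centring the counts became 4 and 3 (all genes 17.3% and 25%), and 6 and 3 (17.1% and 24.3%). DCP1B and LSM14B were newly called lower in both. EDC4, the scaffold of the decapping complex, was the highest at 0.65 ± 0.10 and 0.75 ± 0.10 in the deposited tables. DCP2, the decapping enzyme itself, went the other way. It had 2050 and 2048 normalised reads in the knockout, 1202 and 1274 in the wild-type rescue and 1096 and 1198 in the deletion rescue, with no overlap. The authors' deposited tables gave -0.69 ± 0.09 (adjusted p = 1.07e-14) and -0.80 ± 0.09 (7.59e-18). The cofactor DCP1A, in contrast, was called higher at 0.55 ± 0.13 in both.

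Deadenylase genes were mixed. In CCR4-NOT, 6 of 11 were called higher with wild-type G3BP1 (all genes 23%) and 7 with the deletion (22.8%), none lower. Values ran from CNOT11, a subunit of the scaffold's N-terminal module (0.64 ± 0.10 in both deposited tables), down to the nuclease CNOT8 (-0.22 ± 0.15 and -0.18 ± 0.15, not called). After centring 4 were called higher (all genes 17.3% and 17.1%) and 1 lower (25% and 24.3%) with each protein. The lower gene was CNOT8 (adjusted p = 0.0171 and 0.0403). CNOT1, the scaffold, was called higher at 0.17 ± 0.06 and 0.24 ± 0.06 in the deposited tables, and centring turned its sign with wild-type G3BP1 and ended both calls. PARN, a separate deadenylase, was called higher at 0.39 ± 0.15 and 0.52 ± 0.14, the first of which centring ended. PAN2, the nuclease of the other deadenylase complex, had 700 and 742 normalised reads in the knockout, 462 and 422 in the wild-type rescue and 507 and 468 in the deletion rescue. It was called lower in both deposited tables, at -0.66 ± 0.14 (adjusted p = 6.96e-06) and -0.52 ± 0.13 (0.000395), while its partner PAN3 was not called (-0.07 ± 0.13 and -0.16 ± 0.14) except, after centring, with the deletion (adjusted p = 0.0460). Of the exonucleases, the nuclear XRN2 was called higher at 0.47 ± 0.08 in both deposited tables. The cytoplasmic XRN1 was at -0.13 ± 0.12, called lower only after centring (adjusted p = 0.0261), and at -0.33 ± 0.12, called lower with the deletion (adjusted p = 0.0146).

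**Figure D2:**
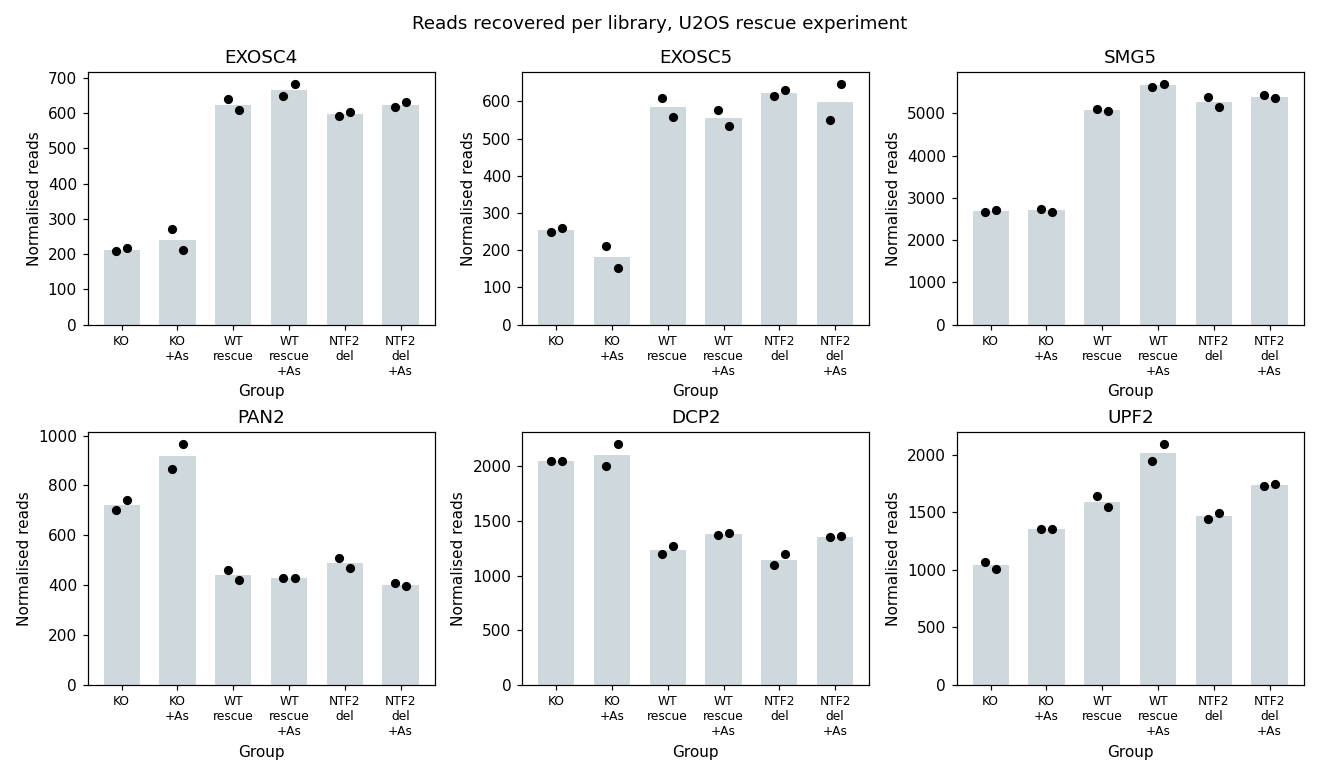
Normalised reads (vertical axis, linear from 0) recovered for 6 genes in the 12 libraries of the second experiment by group (horizontal axis: KO, knockout; WT rescue, wild-type G3BP1; NTF2 del, NTF2-deletion G3BP1; +As, arsenite), with points for libraries and bars for means of 2. All 8 rescue libraries exceed the 4 knockout libraries for EXOSC4, EXOSC5 and SMG5 and lie under them for PAN2 and DCP2.

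The stretch of 250 bases before the transcription start is shown for the 2 genes with the highest and the 2 with the lowest mean fold change over both rescues, among the 40 members with a RefSeq entry of build GRCh38.p14. They let genes that differed in opposite directions be read side by side. EXOSC4, the member with the highest fold change in both rescues, had no such entry and is not shown. EXOSC7 lies at chr3:44975994-44976243 on the + strand, EXOSC5 at chr19:41397360-41397609 on the - strand, DCP2 at chr5:112976548-112976797 on the + strand and PAN2, at the first of its 2 listed starts, at chr12:56334001-56334250 on the - strand. Each is written 5' to 3' in the direction of the gene, and capitals mark matches on either strand to GGGCGG (GC box), CCGGAAG (ETS), CACGTG (E-box), CCAAT or TATAAA, or to the NRF1 motif.
EXOSC7: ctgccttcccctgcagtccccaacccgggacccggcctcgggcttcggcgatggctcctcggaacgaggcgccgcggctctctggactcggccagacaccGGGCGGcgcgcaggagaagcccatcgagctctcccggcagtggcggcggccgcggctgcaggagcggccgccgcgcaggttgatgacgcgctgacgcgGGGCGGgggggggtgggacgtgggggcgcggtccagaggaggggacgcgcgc
EXOSC5: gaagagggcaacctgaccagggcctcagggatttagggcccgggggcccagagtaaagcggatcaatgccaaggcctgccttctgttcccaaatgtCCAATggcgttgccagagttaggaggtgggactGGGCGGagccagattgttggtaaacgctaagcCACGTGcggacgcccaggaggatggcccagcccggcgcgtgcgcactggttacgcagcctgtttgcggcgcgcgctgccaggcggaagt
DCP2: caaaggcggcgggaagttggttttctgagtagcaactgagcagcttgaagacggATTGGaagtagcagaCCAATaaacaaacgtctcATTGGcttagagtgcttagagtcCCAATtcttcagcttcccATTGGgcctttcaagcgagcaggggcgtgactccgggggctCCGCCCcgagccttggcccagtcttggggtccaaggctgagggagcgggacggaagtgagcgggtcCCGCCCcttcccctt
PAN2: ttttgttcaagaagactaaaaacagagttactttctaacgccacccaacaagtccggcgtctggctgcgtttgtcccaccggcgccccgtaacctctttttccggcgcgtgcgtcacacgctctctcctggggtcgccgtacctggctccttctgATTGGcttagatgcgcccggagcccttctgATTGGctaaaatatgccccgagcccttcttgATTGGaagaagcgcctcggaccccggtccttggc
The EXOSC7 stretch holds 2 matches to the GC box and that of EXOSC5 holds 1 each to the GC box, the E-box and CCAAT. That of DCP2 holds 5 matches to CCAAT and 2 to the GC box, and that of PAN2 holds 3 to CCAAT alone. No matches overlapped. Of 35116 promoters in the table, 42.6% hold the GC box, 32.0% CCAAT, 10.7% TATAAA, 8.52% ETS, 6.34% the E-box and 1.03% NRF1. For the 59 listed starts of the members these shares were 74.6%, 30.5%, 1.69%, 8.47%, 10.2% and 0%. At least 3 CCAAT matches, a number chosen after the sequences were seen, occur in 2.93% of all promoters and in 5 of the 59 member starts, those of CNOT3, CNOT10, DCP2, EXOSC2 and PAN2. A match describes letters only, and no binding was measured here.

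The 2 rescues were then compared with each other, which asks whether the NTF2 domain matters for these mRNAs. Without stress, none of the 47 genes differed between the rescues at an adjusted p under 0.05, against 0.0185% of all genes, and none had an unadjusted p under 0.05. The tested value is the difference between the 2 deposited fold changes, whose errors share the knockout libraries and are therefore overstated. limma, run on the recovered reads of the libraries themselves, also called 0 (all genes 0.87%), with 5 members at an unadjusted p under 0.05. In that fit the log2 difference, wild-type minus deletion, was 0.06 for EXOSC4 (95% interval -0.13 to 0.26), -0.05 for SMG5 (-0.15 to 0.04), -0.14 for PAN2 (-0.31 to 0.03) and 0.11 for DCP2 (-0.01 to 0.24). The intervals of all 47 genes lay between -0.33 and 0.44.

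In the first experiment the knockout was compared with wild-type cells and with knockout cells given G3BP1. Against wild type, 9 of the 47 genes were called higher and 14 lower, where 37.8% of all genes were called, 18.4% higher and 19.4% lower. The median of the 47 was -0.01 and of all tested genes 0.01 on the log2 scale of the authors' deposited table. UPF3A, an NMD factor and paralog of UPF3B, had 2583 and 2588 normalised reads in the knockout and 4565 and 4953 in wild type. Another NMD factor, UPF2, which bridges UPF1 and UPF3, had 3386 and 3315 reads in the knockout against 5890 and 5893. These pairs were far apart, at -0.88 ± 0.07 (adjusted p = 1.12e-35) and -0.81 ± 0.06 (1.14e-39) in the deposited table. SMG1, the kinase that phosphorylates UPF1, was the one NMD gene called higher, with 21897 and 22302 reads against 13376 and 12981. The genome holds near-identical partial copies of SMG1, and how the authors' counting shared reads among them is not stated, so its values are uncertain. In total, 5 of the 9 NMD genes were called lower and 1 higher.

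Outside NMD the differences between knockout and wild type ran both ways, as they did over all genes (18.4% called higher and 19.4% lower). CNOT9, a CCR4-NOT subunit, had 5322 and 5685 normalised reads in the knockout against 3670 and 3722, and CNOT4, a ubiquitin ligase of the complex, had 671 and 610 against 1148 and 1175. In the deposited table these were 0.57 ± 0.06 and -0.85 ± 0.11, the extremes of the complex, in which 1 gene was called higher and 4 lower. PAN2 (0.40 ± 0.09) and PARN (0.37 ± 0.08) were called higher and PAN3 (0.19 ± 0.08) was not. Among decapping genes 4 were called higher and 1 lower, from DCP1A at 0.47 ± 0.09 to LSM14A, a translation repressor of processing bodies, at -0.35 ± 0.06. DCP2 was at 0.30 ± 0.05 (adjusted p = 2.14e-07), with 7346 and 7211 reads against 5862 and 5908. Exosome genes gave 1 higher and 4 lower, from EXOSC1 at 0.23 ± 0.09 to EXOSC4 at -0.68 ± 0.11 in the deposited table. EXOSC4 had 951 and 832 reads in the knockout and 1506 and 1361 in wild type, while EXOSC5 (850 and 834 against 865 and 805) and EXOSC7 (1012 and 962 against 1015 and 982) overlapped. Neither XRN2 (0.12 ± 0.06) nor XRN1 (-0.01 ± 0.07) was called.

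Knockout cells given G3BP1 in the first experiment, named second in the deposited tables, carried more of many of these mRNAs than either other group. Neither of those groups was transfected. Knockout against this rescue gave 4 genes higher and 25 lower (all genes: 37.6% called, 16.1% higher, 21.5% lower). Wild type against the rescue gave 5 higher and 23 lower (35.6% called, 15.2% higher, 20.4% lower). The 3 comparisons of this experiment share their libraries pairwise. After centring, the counts were 6 higher and 19 lower (all genes 19% and 18.8%), and 9 higher and 16 lower (17.6% and 18%). EXOSC4 had 1734 and 1594 normalised reads in the rescue libraries, above both the knockout and wild type, and EXOSC5 had 1221 and 1324. Over all genes with a mean of at least 10 reads, 37.3% lay wholly below the rescue in the knockout and 36% in wild type. For knockout against rescue the authors' deposited table gave -0.90 ± 0.10 for EXOSC4 and -0.60 ± 0.10 for EXOSC5, and 10 of 12 exosome genes were called lower, EXOSC8 being nearest to 0 at -0.12 ± 0.08. PAN2, with 1483 and 1539 reads in the rescue, and DCP2, with 5906 and 5760, were called higher in the knockout at 0.55 ± 0.09 and 0.30 ± 0.05. The other extremes of knockout against rescue were CNOT4 (-0.60 ± 0.11) and CNOT6L (0.12 ± 0.09), LSM14A (-0.50 ± 0.06), PARN (0.05 ± 0.07), XRN1 (0.15 ± 0.07) and XRN2 (-0.14 ± 0.05), and UPF2 (-0.61 ± 0.06) and SMG1 (0.28 ± 0.04). For wild type against rescue they were CNOT9 (-0.62 ± 0.06) and CNOT3 (0.26 ± 0.06), PARN (-0.34 ± 0.08) and PAN2 (0.14 ± 0.08), LSM1 (-0.48 ± 0.09) and DCP1B (0.07 ± 0.10), XRN2 (-0.27 ± 0.05) and XRN1 (0.15 ± 0.07), EXOSC5 (-0.62 ± 0.10) and EXOSC10 (0.12 ± 0.06), and SMG1 (-0.47 ± 0.04) and SMG9 (0.30 ± 0.07), in the deposited table. SMG1 in the rescue, with 17775 and 18091 reads, lay between knockout and wild type.

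PAN2, DCP2 and EXOSC4 can be set side by side in the 2 experiments, whose libraries are separate. PAN2 and DCP2 were called higher in the knockout than in wild type and lower in both later rescues than in the later knockout. EXOSC4 was called lower in the knockout than in wild type and higher in both rescues. Of all 47 genes, 63.8% were called higher with wild-type G3BP1 and 4.26% lower. Of the 14 genes called lower in knockout against wild type, 8 were among those called higher with wild-type G3BP1 (57.1% of the 14 and 26.7% of the 30), among them UPF2, EXOSC2, EXOSC4 and EXOSC10. Of the 9 called higher, 2 were called lower in that rescue, PAN2 and DCP2, and 6 were called higher there too, namely CNOT9, PARN, DCP1A, PATL1, EXOSC1 and SMG1. Across the 47 genes the fold changes of knockout against wild type and of wild-type rescue against knockout had a Spearman rho of -0.19, and over 10723 well expressed genes it was -0.19 as well. With knockout against the rescue of the first experiment instead, rho was -0.53 across the 47 genes and -0.63 over 10731 well expressed genes. Both contrasts of that second pair set transfected against untransfected cells. These are correlations across genes, which are not independent replicates.

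Arsenite is an oxidative stress that drives stress granule assembly. After 2 h, 14.9% of these genes were called in knockout cells, 14.9% in the wild-type rescue and 2.13% in the deletion rescue. Few genes of any kind were called, and the shares of all genes stand beside the counts below. In knockout cells 6 of the 47 were called higher and 1 lower, where 19.4% of all genes were called, 8.56% higher and 10.9% lower. After wild-type G3BP1 was returned, 5 rose and 2 fell (20.4% of all genes, 8.18% higher and 12.2% lower). In the NTF2-deletion rescue 1 was called higher and 0 lower (8.57%, 2.43% and 6.14%). The medians of the 47 were 0.05, 0.05 and 0.04 on the log2 scale of the deposited tables. In all, 35 of the 47 were called in none of the 3. limma on the recovered reads called 16 in knockout cells (34.8% of all genes), 10 higher and 6 lower, and 4 in the deletion rescue (12.2% of all genes).

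UPF2 was called higher in all 3 backgrounds. Its normalised reads went from 1067 and 1007 to 1356 and 1350 in the knockout, from 1640 and 1542 to 1944 and 2091 in the wild-type rescue and from 1437 and 1497 to 1725 and 1749 in the deletion rescue. In each background both treated libraries lay above both untreated ones, as they did for 29.7%, 33% and 26.6% of genes with a mean of at least 10 reads. The authors' deposited tables gave 0.38 ± 0.10 (adjusted p = 0.00125), 0.32 ± 0.06 (2.55e-07) and 0.23 ± 0.07 (0.0211). The last call was lost when p-values were adjusted over all genes without a filter on base mean. The partner UPF3B was called higher in the wild-type rescue at 0.45 ± 0.10 (305 and 315 to 432 and 449 reads), with deposited values of 0.06 ± 0.16 in the knockout and 0.24 ± 0.12 in the deletion rescue.

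The other calls were small. In knockout cells DCP1A (0.43 ± 0.13), PAN2 (0.34 ± 0.12), CNOT2 (0.33 ± 0.13), SMG1 (0.25 ± 0.07) and the scaffold CNOT1 (0.25 ± 0.07) were higher with arsenite and LSM14B (-0.26 ± 0.10) lower in the deposited table, the last a call that centring ended. In the wild-type rescue DCP1A (0.24 ± 0.07), EXOSC6 (0.17 ± 0.06, not called after centring) and SMG5 (0.14 ± 0.04) were higher, and SMG8 (-0.21 ± 0.07) and CNOT3 (-0.17 ± 0.06) lower. No exosome gene was called in knockout cells, where the extremes were EXOSC4 at 0.18 ± 0.20 and EXOSC5 at -0.43 ± 0.20. EXOSC5 had 250 and 260 reads without and 211 and 151 with arsenite, an uneven pair that limma called lower (-0.51 ± 0.11, adjusted p = 0.000677). The remaining extremes in knockout cells were CNOT3 (-0.19 ± 0.11), PARN (0.06 ± 0.15), XRN1 (0.25 ± 0.13), XRN2 (0.13 ± 0.09) and SMG8 (-0.09 ± 0.13). In the wild-type rescue they were CNOT8 (0.20 ± 0.09), PAN3 (0.11 ± 0.08), PAN2 (-0.06 ± 0.10), DCP1B (0.30 ± 0.12), DDX6 (0.01 ± 0.04), XRN2 (0.09 ± 0.04), XRN1 (-0.00 ± 0.08) and DIS3L (-0.08 ± 0.09) in the deposited table. In the deletion rescue they were CNOT2 (0.19 ± 0.09), CNOT3 (-0.16 ± 0.08), PAN3 (0.12 ± 0.10), PAN2 (-0.22 ± 0.11), DCP2 (0.22 ± 0.08), EDC4 (-0.10 ± 0.07), XRN1 (0.16 ± 0.09), XRN2 (0.11 ± 0.06), EXOSC3 (0.13 ± 0.11), DIS3L (-0.15 ± 0.10) and SMG6 (-0.17 ± 0.09), and none of these was called in the deposited tables.

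**Figure D3:**
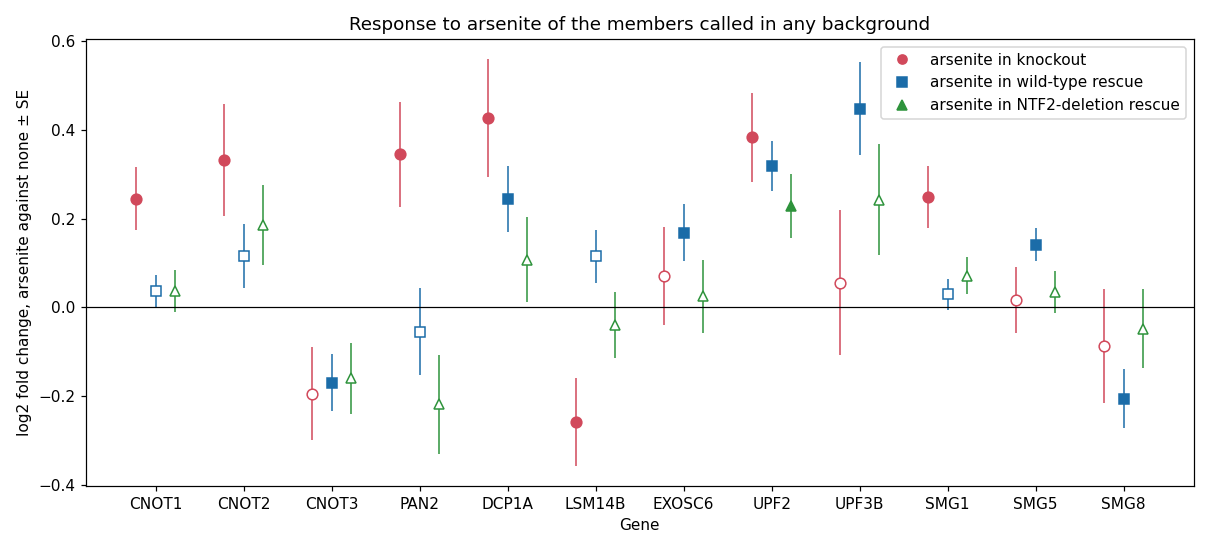
Log2 fold change with arsenite (vertical axis, ± the authors' standard error) for the 12 genes called in any background (horizontal axis), with circles for knockout, squares for wild-type rescue, triangles for NTF2-deletion rescue and filled symbols for calls. UPF2 is filled in all 3, and PAN2 lies above 0 in the knockout and below it in both rescues.

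Whether the response to arsenite differed between backgrounds was tested directly. Wild-type rescue minus knockout called 1 member, LSM14B, against 4.51% of all genes, and deletion rescue minus knockout called 1, PAN2, against 7.12%. Wild-type rescue minus deletion rescue called 0 (all genes 0.328%), with 1 member at an unadjusted p under 0.05, and limma called 0 as well (all genes 0.018%). PAN2 had 700 and 742 normalised reads in untreated and 868 and 966 in treated knockout cells, but 507 and 468 before and 407 and 398 after arsenite in the deletion rescue. The 2 responses ran in opposite directions without overlap of libraries, and differed by -0.56 ± 0.16 on the log2 scale (adjusted p = 0.0112). Among genes with a mean of at least 10 reads, 29.7% lay wholly higher with arsenite in the knockout and 26.3% wholly lower in the deletion rescue. With wild-type G3BP1 PAN2 had 462 and 422 reads before and 427 and 429 after, and its difference from the knockout response, -0.40 ± 0.15, was not called (adjusted p = 0.137). LSM14B, a relative of LSM14A, had 1478 and 1580 reads before and 1348 and 1182 after arsenite in the knockout, against 1433 and 1370 before and 1473 and 1606 after in the wild-type rescue. Its difference was 0.37 ± 0.12 (adjusted p = 0.0337), which centring moved to an adjusted p of 0.0548. UPF2 responses differed by -0.06 ± 0.11 and -0.15 ± 0.12 between each rescue and the knockout and were not called different (adjusted p = 0.936 and 0.652).

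The arsenite-treated rescues were also set against untreated knockout cells, a contrast in which stress and G3BP1 both change. Here 36 genes were called higher and 2 lower with wild-type G3BP1 (all genes 44.9% called, 25.1% higher, 19.8% lower), and 33 and 2 with the deletion (43%, 23.3% and 19.6%). After centring the counts were 28 and 3 (all genes 18.2% and 27.2%), and 24 and 6 (17.5% and 25.7%), and DDX6 turned sign with wild-type G3BP1. SMG5 (1.15 ± 0.06 and 1.05 ± 0.06) and EXOSC4 (1.71 ± 0.15 and 1.59 ± 0.16) were again the highest NMD and exosome genes, and DCP2 (-0.49 ± 0.08 and -0.54 ± 0.08) and PAN2 (-0.67 ± 0.12 and -0.78 ± 0.13) the lowest in the authors' deposited tables. SMG6 (-0.02 ± 0.11 and -0.26 ± 0.12) and DIS3L (0.12 ± 0.13 and 0.04 ± 0.13) were the lowest of their groups and were not called. The other extremes were CNOT2 (0.71 ± 0.11), DCP1A (0.86 ± 0.12) and CNOT8 (0.05 ± 0.13) with wild-type G3BP1, and CNOT7 (0.73 ± 0.09), LSM1 (0.83 ± 0.14) and CNOT8 (-0.08 ± 0.14) with the deletion. PARN (0.43 ± 0.13 and 0.43 ± 0.14), XRN2 (0.62 ± 0.07 and 0.60 ± 0.08) and XRN1 (-0.08 ± 0.10 and -0.13 ± 0.11) complete the roles in the deposited tables.

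RNA immunoprecipitation asks which mRNAs were recovered with G3BP1. Here 41 of the 47 genes were called, 18 higher in the immunoprecipitate and 23 lower, where 56.1% of all genes were called, 24.7% higher and 31.4% lower. The spread was wide, from EXOSC5 at 1.95 ± 0.15 (adjusted p = 2.79e-35) to SMG1 at -3.84 ± 0.17 (3.32e-117) in the authors' deposited table, against a median of -0.13 for the 47, -0.26 for all tested genes and 0.12 for well expressed genes. Values for single libraries were not recovered from this table, so the fold changes are given with the authors' errors (n = 3 per group). All statistics in it are wide: when each was divided by their robust spread of 3.84, 4 members were called higher and 13 lower (all genes 4.2% and 6.71%). Those 4 are EXOSC4, EXOSC5, EXOSC7 and LSM1, and the 13 include SMG1, CNOT1, XRN1, SMG6, UPF1, EDC4, PAN2, DCP1A and UPF2.

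Exosome mRNAs were mostly on the recovered side, with 8 of 12 called higher and 3 lower (all genes 24.7% and 31.4%), and a median of 0.77. EXOSC4 (1.82 ± 0.13), EXOSC7 (1.67 ± 0.14), EXOSC9 (1.37 ± 0.16) and EXOSC8 (1.26 ± 0.13) followed EXOSC5, while the nuclease genes DIS3 (-1.30 ± 0.14), EXOSC10 (-1.18 ± 0.12) and DIS3L (-0.84 ± 0.16) were called lower in the deposited table. NMD mRNAs were mostly on the other side, with 1 called higher, UPF3B (0.39 ± 0.13, a call that centring ended), and 6 lower, among them SMG6 (-2.64 ± 0.14), UPF1 (-2.57 ± 0.15) and UPF2 (-1.88 ± 0.13). Decapping genes gave 3 higher and 6 lower, from LSM1, a subunit of the ring that binds shortened tails (1.46 ± 0.12), to DCP1A (-2.33 ± 0.17). CCR4-NOT was split at 5 higher and 5 lower, from CNOT11 (1.15 ± 0.13) to the scaffold CNOT1 (-3.35 ± 0.17, adjusted p = 1.91e-82). PAN2 (-2.25 ± 0.15) and PAN3 (-1.72 ± 0.16) were called lower and PARN (0.26 ± 0.12) was not called, and XRN2 (0.73 ± 0.17) and XRN1 (-2.82 ± 0.15) went opposite ways in the deposited table. Division by the robust spread left 3 exosome genes higher and 0 lower, so DIS3, EXOSC10 and DIS3L lost their calls (adjusted p = 0.102, 0.0879 and 0.554). It left 0 CCR4-NOT genes higher and 2 lower (CNOT1 and CNOT6L), 1 decapping gene higher and 4 lower, and 0 NMD genes higher and 4 lower. PAN2, PAN3 and XRN1 were still called lower, and XRN2 was not called.

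**Figure D4:**
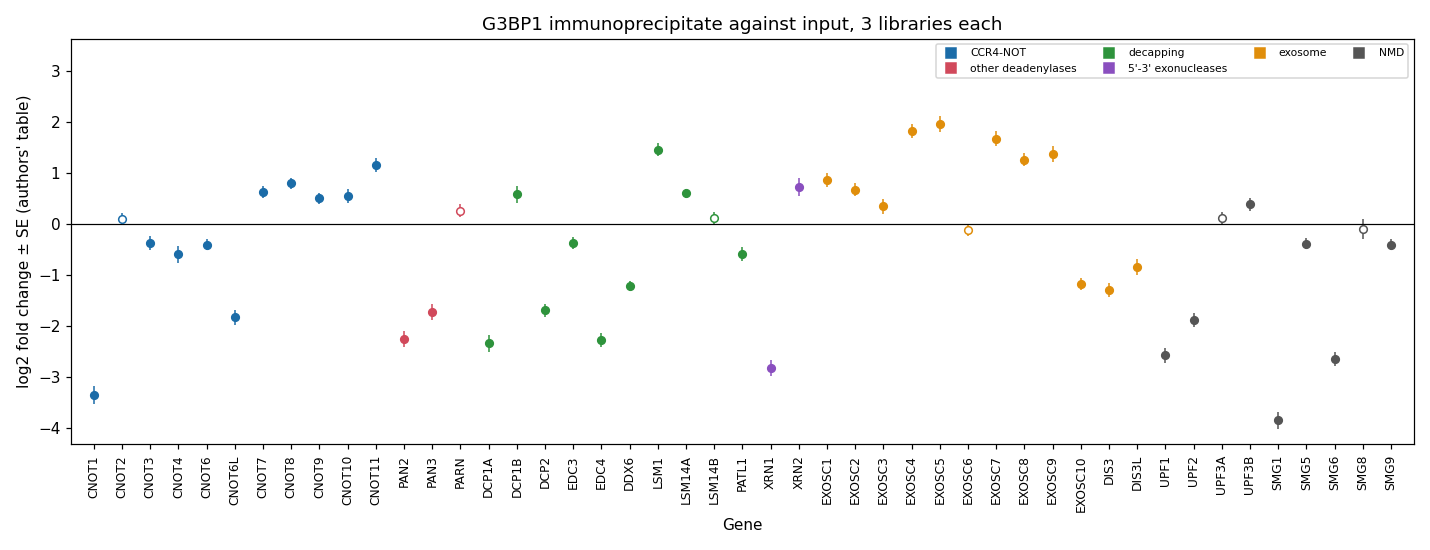
Log2 fold change of immunoprecipitate against input (vertical axis, ± the authors' standard error) for the 47 genes (horizontal axis), with filled symbols for called genes and colours for roles. Values run from 1.95 for EXOSC5 to -3.84 for SMG1.

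Gene length moved with this recovery. Across the 47 genes the Spearman rho between RefSeq genomic span and the immunoprecipitation fold change was -0.50, and across 9777 well expressed genes it was -0.52. These are correlations across genes of the same libraries. Span also moved with the members' change in the wild-type rescue (rho -0.37, all well expressed genes -0.10) and with the arsenite response in knockout cells (0.58, all 0.16). The part of length in these results was not tested.

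**Figure D5:**
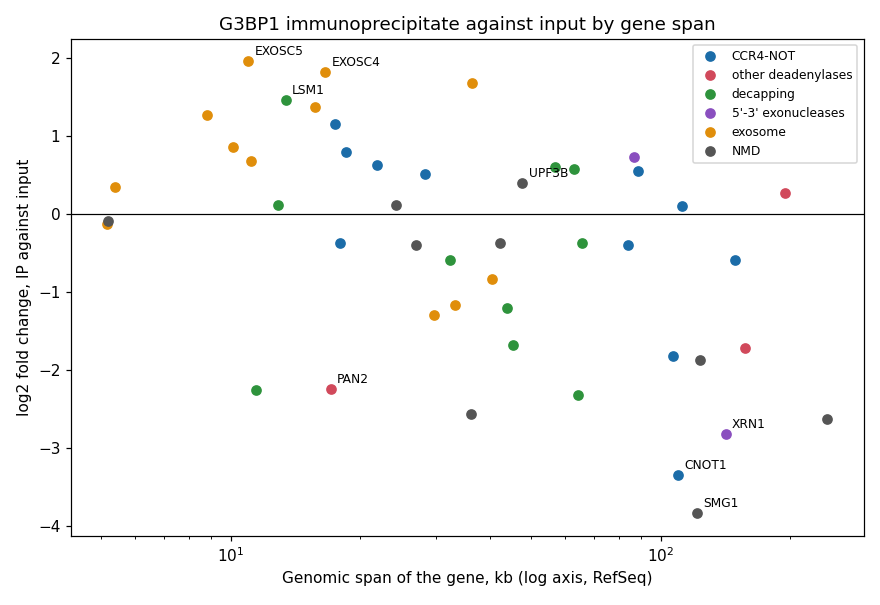
Log2 fold change of immunoprecipitate against input (vertical axis) against genomic span in kb (horizontal log axis) for the 47 genes, coloured by role. Short exosome genes lie at the upper left and SMG1, CNOT1 and XRN1 at the lower right, with a Spearman rho of -0.50.

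Of all 47 genes, 63.8% were called higher and 4.26% lower with wild-type G3BP1, and 70.2% and 6.38% with the deletion. Of the 18 genes called higher in the immunoprecipitate, 14 also rose with wild-type G3BP1 (77.8% of the 18 and 46.7% of the 30 called there). Of the 23 called lower, 13 were called higher in that rescue (56.5%) and 2, PAN2 and DCP2, lower (8.70%). For the deletion rescue 15 of the 18 were called higher (83.3%), and 14 of the 23 were called higher and 3 lower. Across the 47 genes the 2 fold changes had a Spearman rho of 0.34 with wild-type G3BP1 and 0.38 with the deletion, and 0.16 and 0.20 over 9173 and 9206 well expressed genes. The immunoprecipitation came from other cells than the rescue, and genes are not independent replicates.

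Paralogs often parted. Of the nuclease pair CNOT7 and CNOT8, both were called higher in the immunoprecipitate (0.62 ± 0.12 and 0.79 ± 0.12 in the deposited table), but in the wild-type rescue CNOT7 was called higher (0.57 ± 0.09) and CNOT8 was not called (-0.22 ± 0.15) unless centred, when it was lower. CNOT7 had 1232 and 1337 normalised reads in the knockout and 1844 and 1890 in that rescue, and CNOT8 had 521 and 541 against 439 and 448. CNOT6 and CNOT6L, the second nuclease pair, were both called lower in the immunoprecipitate (-0.40 ± 0.11 and -1.82 ± 0.14), and in the wild-type rescue they stood at 0.37 ± 0.11, called except after centring, and -0.10 ± 0.18, not called. DCP1A was called lower in the immunoprecipitate and higher in the rescue (-2.33 ± 0.17 and 0.55 ± 0.13), whereas DCP1B was called higher in the first (0.58 ± 0.17) and not called in the second (-0.39 ± 0.18), in the deposited tables, though centring called it lower there (adjusted p = 0.00698). LSM14A and LSM14B were at 0.37 ± 0.09, called except after centring, and -0.09 ± 0.09, called lower only after centring (adjusted p = 0.00981), in the wild-type rescue. Against wild type, the knockout had less LSM14A (-0.35 ± 0.06) and more LSM14B (0.30 ± 0.07), both called. UPF3A and UPF3B were both called lower there (-0.88 ± 0.07 and -0.28 ± 0.11), and neither was called in the rescue (0.25 ± 0.12 and -0.17 ± 0.17). DIS3 was called higher in the rescue (0.84 ± 0.11) and DIS3L was not (0.14 ± 0.14), in the deposited tables. Of the immunoprecipitation calls given for these pairs, those of CNOT6L and DCP1A held after division by the robust spread, and those of CNOT6, CNOT7, CNOT8 and DCP1B did not. Differences between paralogs were not themselves tested.

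Decay genes beyond the 47 were counted in the same way. Of 38 further factors (recruiters of deadenylases, the remaining LSM ring, exosome cofactors, further NMD and exon junction genes and message-specific factors), 24 were called higher and 4 lower with wild-type G3BP1 (all genes 23% and 19.1%), and 23 and 4 with the deletion (22.8% and 18.7%). After centring these were 19 and 5 (all genes 17.3% and 25%), and 17 and 4 (17.1% and 24.3%). All 6 LSM ring genes were called higher in the knockout than in wild type (all genes 18.4%), from LSM3 at 0.28 ± 0.09 to LSM4 at 0.51 ± 0.07 in the authors' deposited table. Against the rescue of that experiment, 6 were called lower in wild type (all genes 20.4%) and 2 in the knockout (21.5%), none higher. The later rescues gave 3 higher and 0 lower with wild-type G3BP1, and 4 and 0 with the deletion. After centring those were 1 and 1, and 2 and 0. All 6 LSM ring genes were called higher in the immunoprecipitate (all genes 24.7%), from LSM5 at 0.45 ± 0.14 to LSM2 at 1.74 ± 0.16. Of these, 2 were called after division by the robust spread (all genes 4.2%). Of 12 transcripts known as NMD targets, 11 rose and 0 fell with wild-type G3BP1 (all genes 23% and 19.1%) and 10 and 0 in the deletion rescue (22.8% and 18.7%), and after centring 10 and 0 in each (17.3% and 25%, and 17.1% and 24.3%). Their log2 fold changes had medians of 1.16 and 1.03, from TBL2 (0.23 ± 0.12 and 0.22 ± 0.12) to GADD45A (2.74 ± 0.09 and 2.47 ± 0.10) in the deposited tables. Several of these targets, GADD45A and ATF3 among them, are also stress-induced genes. Arsenite in knockout cells gave 6 of the 12 higher and 4 lower (all genes 8.56% and 10.9%), up to ATF3 at 6.08 ± 0.09 in the deposited table. Fewer cells expressing a gene and less RNA per cell cannot be told apart in any of these bulk libraries.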

How the data were processed

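Of 72 samples, 24 in 11 groups were used and 48 were not analysed here. Reads were aligned with STAR (2.7.0f or, as written for the second U2OS experiment, 1.5.3) and compared with DESeq2 2.11.40.6, per the submitters' processing notes; the genome build is not given in the sources used here. The authors' deposited tables give a base mean (a signal in normalised reads), a log2 fold change with its standard error, a Wald score and a p-value with its adjusted form. As the values of genes with few reads show, deposited fold changes are shrunk toward 0, by an amount that differs between tables; for called and other members in U2OS cells they differed from ratios of group means by at most 0.09 (log2). The threshold for a call was an adjusted p under 0.05, over the genes the authors tested. Whole reads of the 18 U2OS libraries were recovered from the base means of overlapping tables as a whole-number solution. One was found for 21446 of 21446 genes (6 libraries) and 17945 of 17945 (12 libraries) with base means of at least 10. On simulated data 400 of 400 genes per experiment were recovered rightly, but other solutions for the real genes were not searched for. The recovered reads were normalised by median ratios within an experiment. The 6 immunoprecipitation libraries could not be recovered. Differences between tables were divided by the root of summed squared errors and adjusted over genes with base means of at least 10 in both. limma 3.58.1 on log2(reads + 0.5), fitted over all groups of an experiment, was an alternative chosen after seeing the data. The members and lists were chosen with earlier results of these data known. Genes named are the highest and lowest of each role in every comparison, those called in a difference test or in all 3 arsenite responses, the paralog pairs and, of other lists, the extremes; genes given with reads beyond these were chosen after their values were seen. The 2 libraries of each U2OS group differed by more than sampling (mean squared standardised difference 1.75 to 4.21, about 1 expected) and were counted separately. Promoters are from RefSeq; gene symbols matched for all 47 members. Python 3.11.15 was used.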

Additional observations from a re-analysis of the deposited data

Results flagged for a closer look

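The response of PAN2 to arsenite differed between backgrounds by a direct test. The log2 difference, NTF2-deletion rescue minus knockout, was -0.56 ± 0.16 (adjusted p = 0.0112; 0.000379 to 0.0207 over the alternatives), and limma called it in 8 of 8 fits that each left out 1 library. The response of LSM14B differed between the wild-type rescue and the knockout by 0.37 ± 0.12 (adjusted p = 0.0337; 0.00393 to 0.0614 over the alternatives), and limma called it in 7 of 8 such fits. Each is the 1 gene of the 47 called in its test. Of all genes, 7.12% were called in the test that called PAN2 and 4.51% in the test that called LSM14B. No cause was tested.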

How the results depend on the processing

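No paired analysis was possible because the tables carry no replicate numbers for single libraries. Dividing the immunoprecipitation statistics by their robust spread cut the members called from 41 to 17. Without a filter on base mean, arsenite in the NTF2-deletion rescue called 0 members instead of 1, and the arsenite difference between wild-type rescue and knockout 0 instead of 1. limma on recovered reads, chosen after seeing the data, called 16 rather than 7 for arsenite in the knockout, 4 rather than 1 in the deletion rescue, and 3 rather than 1 in each arsenite difference from the knockout. Of all genes it called 34.8%, 12.2%, 9.53% (wild-type rescue) and 13.9% (deletion) there. Its shares of all genes were 50.4% to 58.4% in the first experiment, 66.9% to 69.9% for rescues against untreated knockout and 16.9% for arsenite in the wild-type rescue. For fits that left out 1 library, shares of all genes were not counted. Leaving out 1 library at a time, limma called 24 to 26 members for knockout against wild type, 23 to 30 for knockout against rescue, 24 to 28 for wild type against rescue, 37 to 38 for the wild-type rescue, 38 to 41 for the deletion rescue and 36 to 38 for each arsenite-treated rescue against untreated knockout. The ranges for arsenite were 13 to 17 in the knockout, 2 to 3 in the wild-type rescue and 0 to 4 in the deletion rescue, and for the differences from the knockout 0 to 6 with wild-type G3BP1 and 1 to 6 with the deletion. Without untreated library a or treated library b, arsenite in the deletion rescue called 0, and without treated library b of the wild-type rescue its difference from the knockout called 0. These fits hold fewer samples, and the lone library is assumed to vary like the other groups. The 2 differences between rescues stayed at 0. No named called member changed sign between deposited fold change and ratio of group means, with or without 1 library.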
